A study of Mus musculus with 53 samples.

Results

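CTCF and the cohesin genes build and hold the loops of mouse chromosomes, and 10 of them were described here in embryonic cortex: the ring genes Smc1a, Smc3 and Rad21, the STAG subunit genes Stag1 and Stag2, the loader genes Nipbl and Mau2, the regulator genes Pds5a and Pds5b, and Ctcf. They were chosen by name and not by level, though with earlier results of these data known. All 10 were found among the 37991 gene IDs measured. The series holds 53 mouse libraries in 19 groups and asked whether activity of neurons and plasticity in the adult alter mRNA levels by way of histone turnover. The group used here is E16.5 (embryonic day) cortex of the C57bl/6 strain, labelled as an unstimulated control, with 3 libraries. The other 50 libraries in 18 groups, made from cultured neurons and astrocytes and from adult hippocampus, are not analysed here. The authors deposited the cortex as 1 mean value for each gene ID in RPKM (reads per kilobase per M reads sequenced), so values of single libraries, an SD and a test between groups could not be had. The labels used here do not say whether these libraries stem from different animals.

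Cohesin is a protein ring made of SMC1A, SMC3 and the kleisin RAD21, which closes the ring, with STAG1 or STAG2 bound to the kleisin. NIPBL and MAU2 load the ring onto DNA and NIPBL drives it to extrude loops, PDS5A and PDS5B help to decide whether it stays or leaves, and CTCF, a zinc finger protein bound to its DNA motif, halts it at loop anchors. The same ring holds sister chromatids together in dividing cells and remains in neurons that no longer divide; in humans, variants in NIPBL and in ring genes cause Cornelia de Lange syndrome, which affects brain development.

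All 10 genes were measured in the E16.5 cortex far above the counting floor, with about 14063 to 38820 reads each. Rad21 was highest by every scale per kilobase, and Smc1a, Smc3 and Ctcf also stood in the upper range of protein-coding genes. The STAG, PDS5 and Nipbl genes were the lowest members in deposited RPKM, and these 5 are the members with the longest gene spans. Of them only Stag1 was below the median of protein-coding genes listed above 0, 0.450 RPKM. The next paragraphs give first the sequences that bear on how well the members can be counted, and then the levels by role.

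In the 8 pairs of related genes compared, no run of identical coding bases was longer than 23. The aligned coding sequences of Stag1 and Stag2 were 70.6% identical, those of Pds5a and Pds5b 70.2%, and those of Smc1a and its germline paralog Smc1b 63.0%. The longest run of bases shared without a mismatch was 23 bases in each of these 3 pairs, in exon 12 of both STAG genes, in exon 25 of both PDS5 genes and in exon 6 of both Smc1 genes. These runs are shown because reads confined to them could not be assigned to 1 gene. The sequences are those of the GENCODE M21 transcripts with the longest coding region, 5′ to 3′. The shared run is in capitals, with 18 coding bases on either side.
Stag1, coding bases 1129 to 1187: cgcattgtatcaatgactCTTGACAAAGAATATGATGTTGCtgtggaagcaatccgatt
Stag2, coding bases 1120 to 1178: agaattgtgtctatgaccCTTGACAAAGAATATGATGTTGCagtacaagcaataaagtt
Pds5a, coding bases 2845 to 2903: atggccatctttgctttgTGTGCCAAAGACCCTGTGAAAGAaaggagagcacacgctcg
Pds5b, coding bases 2818 to 2876: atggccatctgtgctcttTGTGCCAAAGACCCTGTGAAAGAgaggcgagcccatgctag
Smc1a, coding bases 856 to 914: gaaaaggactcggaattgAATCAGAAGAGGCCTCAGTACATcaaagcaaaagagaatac
Smc1b, coding bases 856 to 914: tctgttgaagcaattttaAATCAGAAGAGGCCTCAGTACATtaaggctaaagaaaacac
Among the other 5 pairs compared, the longest shared run was 12 bases for Smc1a with Smc3, Rad21 with Rec8 and Ctcf with Ctcfl, 14 bases for Stag2 with Stag3, and 17 bases for Rad21 with Rad21l. At a length of 50 bases, 8 of the 10 members shared no stretch of their transcript with any other annotated gene. Smc3 shared 75 of 4802 such stretches (1.56%) with 3 other genes, all processed pseudogenes. Pds5a shared 233 of 8885 (2.62%) with 2 gene models on its opposite strand. No source used here gives the read length, so 50 bases is a chosen value.

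No member shared exon bases with another gene on its own strand. Other gene models on the same strand do lie inside the spans of Pds5a, Pds5b and Stag1, and their part in the counts was not tested. On the opposite strand, overlap covered 7.61% of the exon bases of Ctcf, 1.93% of those of Pds5a and 0.339% of those of Stag2, and none of those of the other 7 members. No source used here says whether the counting was by strand, so reads from those stretches of Ctcf, Pds5a and Stag2 cannot be told from reads of their opposite-strand neighbours.

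Most promoter windows of the members were rich in CpG, and several held the same short motif. RefSeq promoter windows of 300 bases, 250 before and 50 after the gene start, were matched for 7 of the 10 members. Rad21, Stag2 and Nipbl had no entry. The letters AAAATGGC, which lie within the known motif of the zinc finger protein YY1, were present on either strand in 4 of the 7 windows, those of Ctcf, Smc3, Pds5b and Stag1. The same letters were present in 507 of 32851 windows of all genes (1.54%), in 1.62% of those of protein-coding genes and in 2.41% of those of protein-coding genes at 1 RPKM or more. This motif was picked after the members' promoters had been read, so its count is a description with no test. The 4 matches are shown with 40 bases before and 10 after, on the strand of the gene, from RefSeq on build GRCm38.p6, with the match in capitals. GCCATTTT is the same motif on the other strand.
Ctcf, chr8:105636508-105636565, plus strand: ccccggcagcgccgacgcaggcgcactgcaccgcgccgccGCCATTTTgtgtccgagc
Smc3, chr19:53600356-53600413, plus strand: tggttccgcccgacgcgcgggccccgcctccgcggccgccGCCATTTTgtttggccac
Pds5b, chr5:150673750-150673807, plus strand: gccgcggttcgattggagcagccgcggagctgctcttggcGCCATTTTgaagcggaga
Stag1, chr9:100643206-100643263, plus strand: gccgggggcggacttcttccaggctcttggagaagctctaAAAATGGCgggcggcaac
The match began 10 bases after the first transcribed base in Ctcf, at that base itself in Smc3, at -37 from it in Pds5b and at -202 in Stag1. The Stag1 window lies inside the RefSeq gene, at a start that is not its outermost one. Other motifs were searched on both strands of the same windows. The GC box GGGCGG was present in all 7, against 35.7% of all windows and 66.3% of those of protein-coding genes at 1 RPKM or more. TTTCCCGC, an E2F-type motif, was present in 2 of 7, against 1.07% of all windows and 2.05% of those of protein-coding genes at 1 RPKM or more. CCAAT was present in 3 of 7, against 37.4% and 38.4% of the same sets. TATAAA was in none of the 7, against 13.6% of all windows and 6.27% of those of protein-coding genes at 1 RPKM or more. GCATGCGC was also in none, against 2.71% and 6.28%, as was CCGGAAGT, against 3.89% and 10.05%. In the Stag1 stretch shown GGGCGG begins right after the YY1 letters, with no overlap. The median GC content of the 7 windows was 73.7%, against 52.7% over all windows and 61.7% over those of protein-coding genes at 1 RPKM or more. Their median number of CpG dinucleotides was 41, against 7 and 22. The windows of Smc1a (58.3% GC, 23 CpG) and Mau2 (56% GC, 21 CpG) were near the medians of protein-coding genes at 1 RPKM or more. A match of letters does not show that a factor binds there.

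The length behind each deposited value decides how members compare. Low values of multi-exon genes fell on what 1 read in 1 of 3 libraries would give in 661 of 788 cases (83.9%) when multiplied by gene span, introns included, and in 35 of 1639 cases (2.14%) when multiplied by exon length. The read values were taken from the peaks of the span products themselves, and the exon products got no peaks of their own. These shares are thus not a like comparison of the lengths, though most span products did lie within 0.5% of 3 values. The number 3 was set beforehand from the labels, and only a limited range of low products was searched. Deposited RPKM is read here, as an assumption, as per kilobase of gene span. The same steps gave library totals of 51.3, 64.8 and 71.6 M reads, 188 M reads together. From span and depth, reads per gene were estimated, as well as RPM (reads per M reads, with no length) and RPM per kilobase of exon or of coding length, which assume that no counted read lies in an intron. Intervals below are 95% Poisson intervals on the estimated reads. They cover counting error only and not the spread between libraries. The floor of 3 reads corresponds to 0.0160 RPM.

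All 3 ring genes were above 2 RPKM, and Rad21 was the highest of the 10 members. Rad21 (ENSMUSG00000022314, chromosome 15), the kleisin that is cut when sister chromatids part, had 7.01 RPKM (interval 6.94 to 7.08), from about 38820 reads. Smc1a (ENSMUSG00000041133, chromosome X), an ATPase arm of the ring, had 3.59 RPKM (3.55 to 3.63). Smc3 (ENSMUSG00000024974, chromosome 19), the other ATPase arm, had 2.87 RPKM (2.83 to 2.91). Smc1a over Smc3, whose gene products pair with each other in the ring, gave a ratio of 1.25 in deposited RPKM (1.23 to 1.27), 1.22 per kilobase of exon and 1.26 per kilobase of coding length. This was the pair whose ratio moved least with the length, as both genes span about as much, 46.3 kb for Smc1a and 45.4 kb for Smc3. Rad21 over Smc3 gave 2.44 in deposited RPKM (2.40 to 2.48), 2.08 per kilobase of exon and 3.04 per kilobase of coding length, so that Rad21 was the higher one on each scale. By exon length Rad21 reached 48.9 RPM per kilobase, above 96.6% of the protein-coding genes listed above 0.

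**Figure D1:**
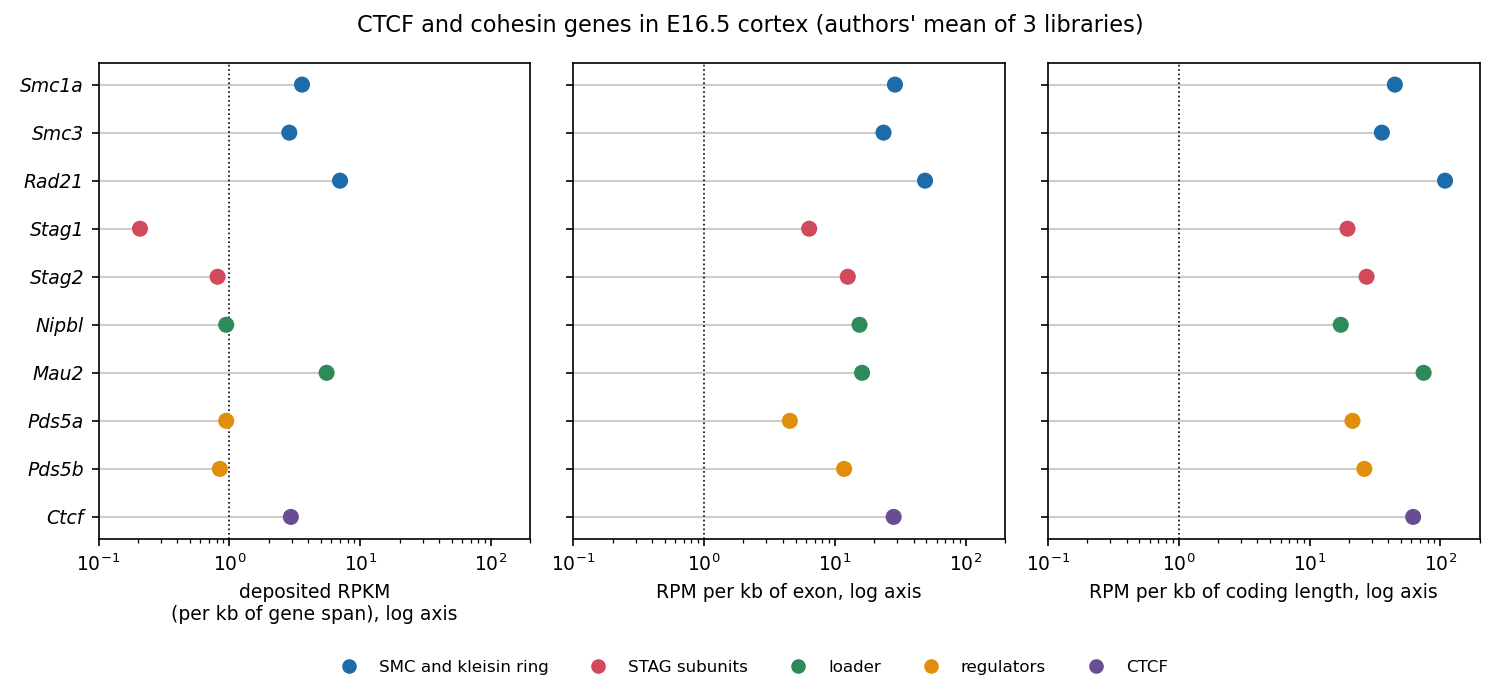
Levels of the 10 CTCF and cohesin genes in E16.5 cortex as deposited (RPKM, assumed to be per kilobase of gene span), per kilobase of exon and per kilobase of coding length, on log axes. Each point is derived from the authors' mean of 3 libraries, colours give the role, and the dotted line is 1. Stag1 is lowest in the first panel at 0.207 RPKM, while all 10 genes lie right of 1 in the other panels and Rad21 is highest in each.

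The STAG subunits were the lowest members in deposited RPKM, with Stag1 below Stag2. Stag1 (ENSMUSG00000037286, chromosome 9), whose protein gives cohesin a longer stay on DNA, had 0.207 RPKM (0.204 to 0.211). Stag2 (ENSMUSG00000025862, chromosome X), the STAG subunit that is more abundant in most somatic cells, had 0.812 RPKM (0.801 to 0.824). Stag1 has the longest span of the members, 362 kb, of which exons are 3.26%, against 128 kb for Stag2. The ratio of Stag1 to Stag2 was 0.255 in deposited RPKM (0.250 to 0.261), 0.507 per kilobase of exon, 0.735 per kilobase of exon in the smaller basic set of GENCODE transcripts and 0.715 per kilobase of coding length. Stag1 was the lower of the pair on each of these 4 scales, but how far below depended on the length. Its estimated reads, about 14063, were the fewest of the 10 members, and those of Stag2 were about 19491.

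The loader genes stood far apart as deposited and close together per kilobase of exon. Mau2 (ENSMUSG00000031858, chromosome 8), which binds and stabilises NIPBL, had 5.54 RPKM (5.47 to 5.60). Nipbl (ENSMUSG00000022141, chromosome 15), the loader proper, had 0.945 RPKM (0.934 to 0.956). Their spans are 26.6 kb for Mau2 and 154 kb for Nipbl, while the estimated reads were about 27655 for Mau2 and 27292 for Nipbl. Mau2 over Nipbl was 5.86 in deposited RPKM (5.76 to 5.96), 1.05 per kilobase of exon, 1.77 with the basic exon set and 4.30 per kilobase of coding length. Union exon length is 9.13 kb for Mau2 over 8 transcripts and 9.42 kb for Nipbl, which has 1 transcript in GENCODE M21. With GENCODE spans Mau2 was the higher on all 4 scales, with sizes between near equality and several fold. RefSeq gives a span that is 1.14 times that of GENCODE for Nipbl and 1.06 times for Mau2, while it lies within 5% for the other 8 members. The read estimates of these 2 genes are thus the least certain. Per kilobase of exon, where the ratio was 1.05, their order depends on which span is used.

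The order of the 2 regulators turned with the length. Pds5a (ENSMUSG00000029202, chromosome 5) had 0.946 RPKM (0.931 to 0.960) and Pds5b (ENSMUSG00000034021, chromosome 5) had 0.845 RPKM (0.834 to 0.857); their proteins bind RAD21 and serve both release by WAPL and protection by sororin. Pds5a over Pds5b was 1.12 in deposited RPKM (1.10 to 1.14), but 0.385 per kilobase of exon, 0.698 with the basic exon set and 0.812 per kilobase of coding length. Pds5a spans 92.6 kb and Pds5b 137 kb, and the union of its 14 annotated transcripts gives Pds5a the longest exon length of the members, 19.3 kb. Which of the 2 genes was higher thus cannot be stated apart from a choice of length.

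Ctcf was of the same order as the SMC genes. Ctcf (ENSMUSG00000005698, chromosome 8) had 2.95 RPKM (2.91 to 2.99), from about 25671 reads, which is 28.1 RPM per kilobase of exon. In deposited RPKM it lay between Smc1a and Smc3, 1.03 times Smc3, and per kilobase of exon it also lay between them, with 28.8 for Smc1a and 23.5 for Smc3. Per kilobase of coding length it was above both, at 61.9 against 44.9 for Smc1a and 35.7 for Smc3. Ctcf over Rad21 was 0.421 in deposited RPKM (0.414 to 0.428), 0.576 per kilobase of exon and 0.571 per kilobase of coding length.

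The order of the 10 members by deposited RPKM, from the highest, was Rad21, Mau2, Smc1a, Ctcf, Smc3, Pds5a, Nipbl, Pds5b, Stag2 and Stag1. Only 1 pair of neighbours in that order, Pds5a and Nipbl, had overlapping counting intervals. The spread between libraries is unknown, so neighbours that differ by a few percent, such as Ctcf and Smc3 or Pds5b and Stag2, cannot be ordered beyond these libraries' counts. The highest was 33.8 times the lowest in deposited RPKM, 10.8 times per kilobase of exon, 5.34 times with the basic exon set and 6.27 times per kilobase of coding length. In RPM, which has no length, it was 2.76 times. The SD over the members of the log2 level was 1.57 in deposited RPKM, 1.04 per kilobase of exon and 0.44 in RPM. Spearman's rho between the deposited order and the order per kilobase of exon was 0.794 over the 10 genes, as a description: both orders come from the same reads.

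**Figure D2:**
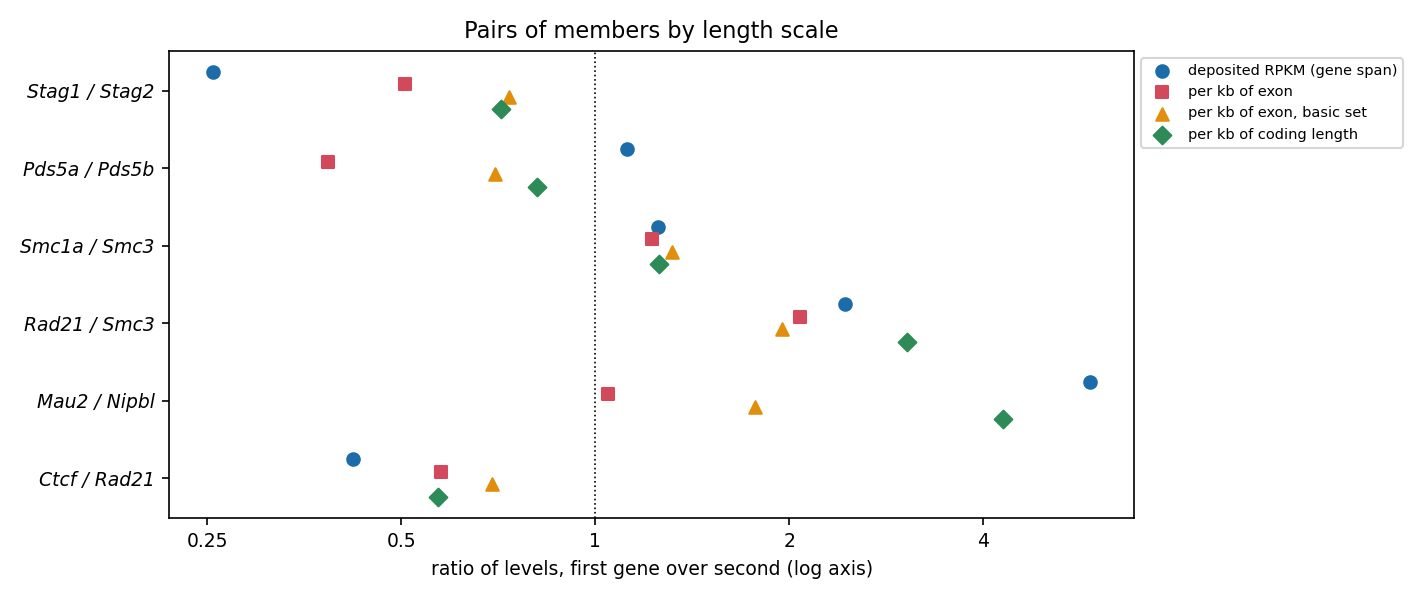
Ratio of the first gene's level to the second's for 6 pairs of members on 4 length scales (log axis; the dotted line marks equal levels), from the authors' mean of 3 E16.5 cortex libraries. Of these 6 pairs, only Pds5a over Pds5b has points on both sides of 1, at 1.12 in deposited RPKM and 0.385, 0.698 and 0.812 on the other scales, while Smc1a over Smc3 stays between 1.22 and 1.32.

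Compared with the rest of the transcriptome, 5 of the 10 members reached 1 RPKM, namely Rad21, Mau2, Smc1a, Ctcf and Smc3. Of all gene IDs 18.8% did so, and of 20230 protein-coding genes 31.6%. The nearest member above that limit was Smc3 at 2.87 RPKM and the nearest below were Pds5a at 0.946 and Nipbl at 0.945 RPKM. Per kilobase of exon all 10 members reached 1, and 54.0% of protein-coding genes did. The median of the members was 1.91 RPKM, against 0.450 RPKM over protein-coding genes listed above 0. On the scale of log2(RPKM + 0.1), which understates differences of low genes, the medians were 0.82 for the members, -0.86 for protein-coding genes and -1.75 for all gene IDs above 0. Per kilobase of exon the medians were 15.8 for the members and 3.0 for protein-coding genes, and per kilobase of coding length 31.5 and 8.96. By deposited RPKM Stag1 stood at percentile 40.6 among protein-coding genes above 0 and the other 9 members between 59.1 and 92.0. Per kilobase of exon the lowest was Pds5a, at percentile 57.6.

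**Figure D3:**
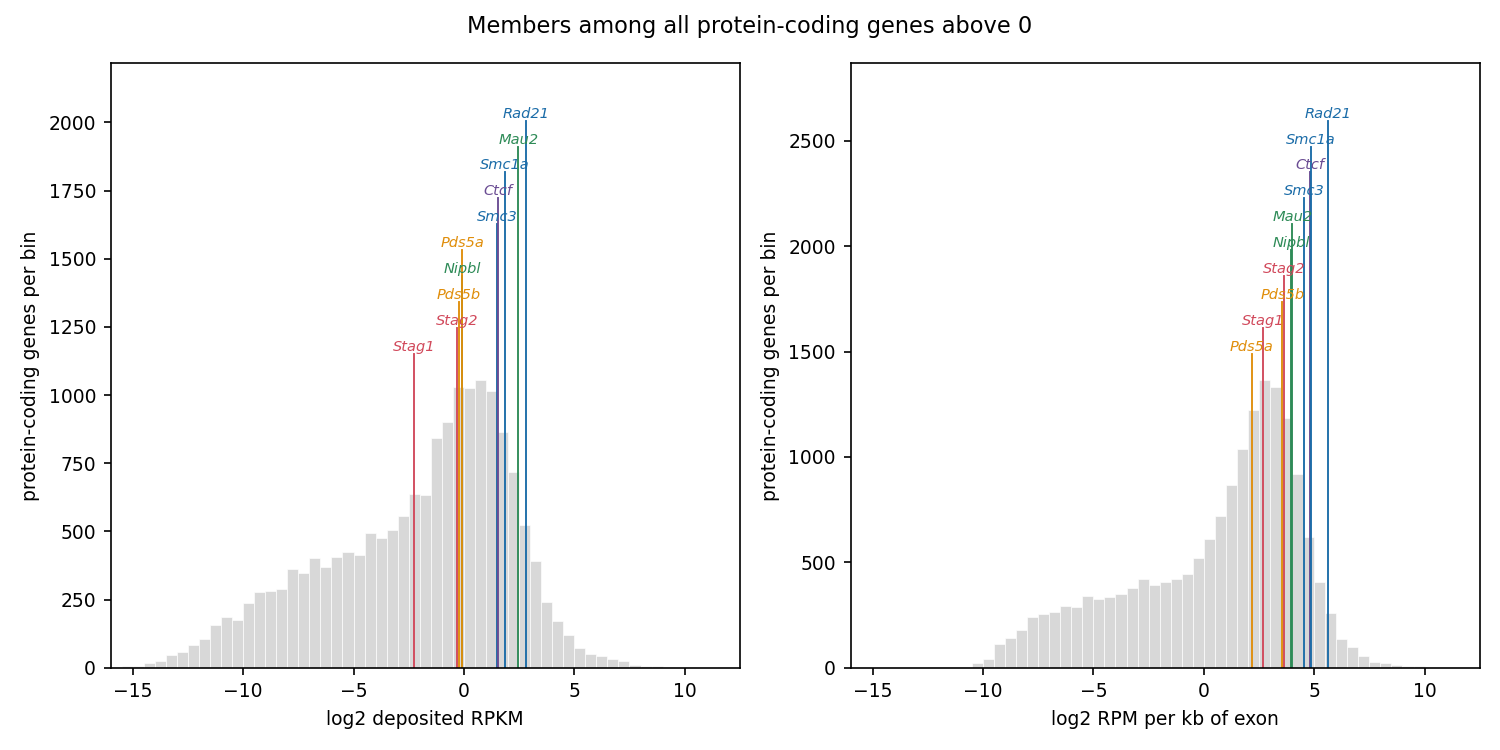
Number of protein-coding genes listed above 0 by log2 deposited RPKM (left) and log2 RPM per kilobase of exon (right), in bins 0.5 wide, with the 10 members as labelled lines coloured by role. Stag1, at 0.207 RPKM, is the only member below the protein-coding median of 0.450 RPKM in the left panel, and all 10 members lie above the median of 3.0 in the right panel.

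The tissue's markers bear on which cells these levels come from. All 8 cortex markers reached 1 RPKM, beside 31.6% of protein-coding genes, from Pax6 at 1.57 to Neurod6 at 194 RPKM. All 5 markers of dividing cells did so as well, from Cdk1 at 1.68 to Mki67 at 6.02 RPKM. Markers of other cells were present in part: 1 of 3 of endothelium (Cldn5, 17.3 RPKM), 2 of 2 of red blood cells (Hbb-bs 52.6 and Hba-a1 53.6 RPKM), 1 of 3 of myelin (Mog, 1.02 RPKM) and none of 3 of microglia, 3 of meninges, 2 of choroid plexus and 3 of germ cells reached 1 RPKM. Per kilobase of exon 3 of 3 markers each of endothelium, microglia and myelin reached 1, beside 54.0% of protein-coding genes. Those of meninges, choroid plexus and germ cells did not. Cx3cr1 of microglia was at 10.2 on that scale, with a GENCODE span of 168 kb. RefSeq gives Cx3cr1 only 0.117 times that span, so this value is uncertain. In a bulk mean, the share of a cell type and its RNA per cell cannot be told apart, and the part of dividing cells or neurons in the members' levels was not tested.

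Genes that act on cohesin through the cell cycle were lower than the members as a list. Of 8, 2 reached 1 RPKM, beside 31.6% of protein-coding genes. The list median was 0.631 RPKM, against 1.91 for the members and 0.450 over protein-coding genes listed above 0. Per kilobase of exon it was 2.36, against 15.8 for the members and 3.0 over protein-coding genes. Cdca5, which encodes sororin, the guard of cohesion, had 1.10 RPKM, and Wapl, the release factor, 1.03 RPKM. The acetyltransferase genes Esco2 and Esco1 had 0.726 and 0.553 RPKM. Esco2 acts in S phase and Esco1 through the cell cycle; the ratio of Esco1 to Esco2 was 0.762 in deposited RPKM, 2.91 per kilobase of exon and 1.44 per kilobase of coding length, so their order turned with the length. Sgo1, which shields centromeric cohesin, had 0.649 RPKM, separase (Espl1), which cuts RAD21, 0.613 RPKM, and securin (Pttg1), its inhibitor, 0.472 RPKM. Hdac8, the SMC3 deacetylase, had 0.0492 RPKM over a span of 221 kb, and 2.24 per kilobase of exon. Wapl stood out per kilobase of exon, at 11.5, with the other 7 between 1.42 and 4.75. Wapl over Pds5a was 1.09 in deposited RPKM, 2.55 per kilobase of exon and 0.996 per kilobase of coding length.

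Germline paralogs of the members were lower than their somatic partners in each of 5 pairs. Smc1a over Smc1b was 579 in deposited RPKM (464 to 723), and 279 per kilobase of exon, with Smc1b at 0.00619 RPKM. Rad21 over Rad21l was 1781 (1108 to 2862) and 891 per kilobase of exon, with Rad21l at 0.00393 RPKM from about 17 reads. Ctcf over Ctcfl, the testis paralog also called BORIS, was 143 (117 to 173) and 169 per kilobase of exon, with Ctcfl at 0.0207 RPKM. With 0.1 RPKM added to both genes, these 3 ratios were 34.7 for Smc1a, 68.4 for Rad21 and 25.3 for Ctcf. The 2 other paralogs were not at such low levels. Rec8, the meiotic kleisin, had 1.55 RPKM and was the only 1 of the 5 to reach 1 RPKM; Rad21 over Rec8 was 4.52 (4.33 to 4.72) in deposited RPKM, 12.6 per kilobase of exon and 16.9 per kilobase of coding length. Stag3, the meiotic STAG subunit, had 0.332 RPKM, which is more than the 0.207 RPKM of Stag1 as deposited, but per kilobase of exon it had 1.86 against 6.36 for Stag1. Stag2 over Stag3 was 2.45 in deposited RPKM (2.34 to 2.56) and 6.75 per kilobase of exon. Germ cell markers Ddx4, Dazl and Sycp3 lay between 0.0143 and 0.0415 RPKM in the same column.

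The other SMC complexes and the partners of CTCF give the setting. For the counts below, 31.6% of protein-coding genes and 18.8% of all gene IDs reached 1 RPKM. Of 8 condensin genes, which compact mitotic chromosomes, 4 reached 1 RPKM, with a median of 0.887 RPKM and 7.70 per kilobase of exon. The highest was Ncapd2 at 6.41 RPKM and the lowest Ncapg2 at 0.449 RPKM. Of 6 genes of the SMC5/6 complex, which serves DNA repair, 3 reached 1 RPKM, with a median of 1.01 RPKM and 6.74 per kilobase of exon, from Nsmce2 at 0.0901 to Nsmce3 at 2.53 RPKM. Of 8 partners of CTCF and looping factors, 6 reached 1 RPKM, with a median of 3.31 RPKM and 12.0 per kilobase of exon. Maz, a zinc finger protein found at CTCF sites, was highest at 54.7 RPKM, and Yy1, named here because its motif is described above, had 2.34 RPKM. Adnp was lowest at 0.0853 RPKM, but 82.1% of its exon bases lie under another gene model on the same strand, Gm20716, which was listed at 0, so its value is uncertain. The members' median was above that of the cohesin cycle, germline, condensin and SMC5/6 lists both in RPKM and per kilobase of exon. Against the CTCF partners it was below in RPKM and above per kilobase of exon. Without Rad21, the members' median in RPKM was the value of Pds5a, 0.946, which lies below the 1.01 RPKM of the SMC5/6 list.

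**Figure D4:**
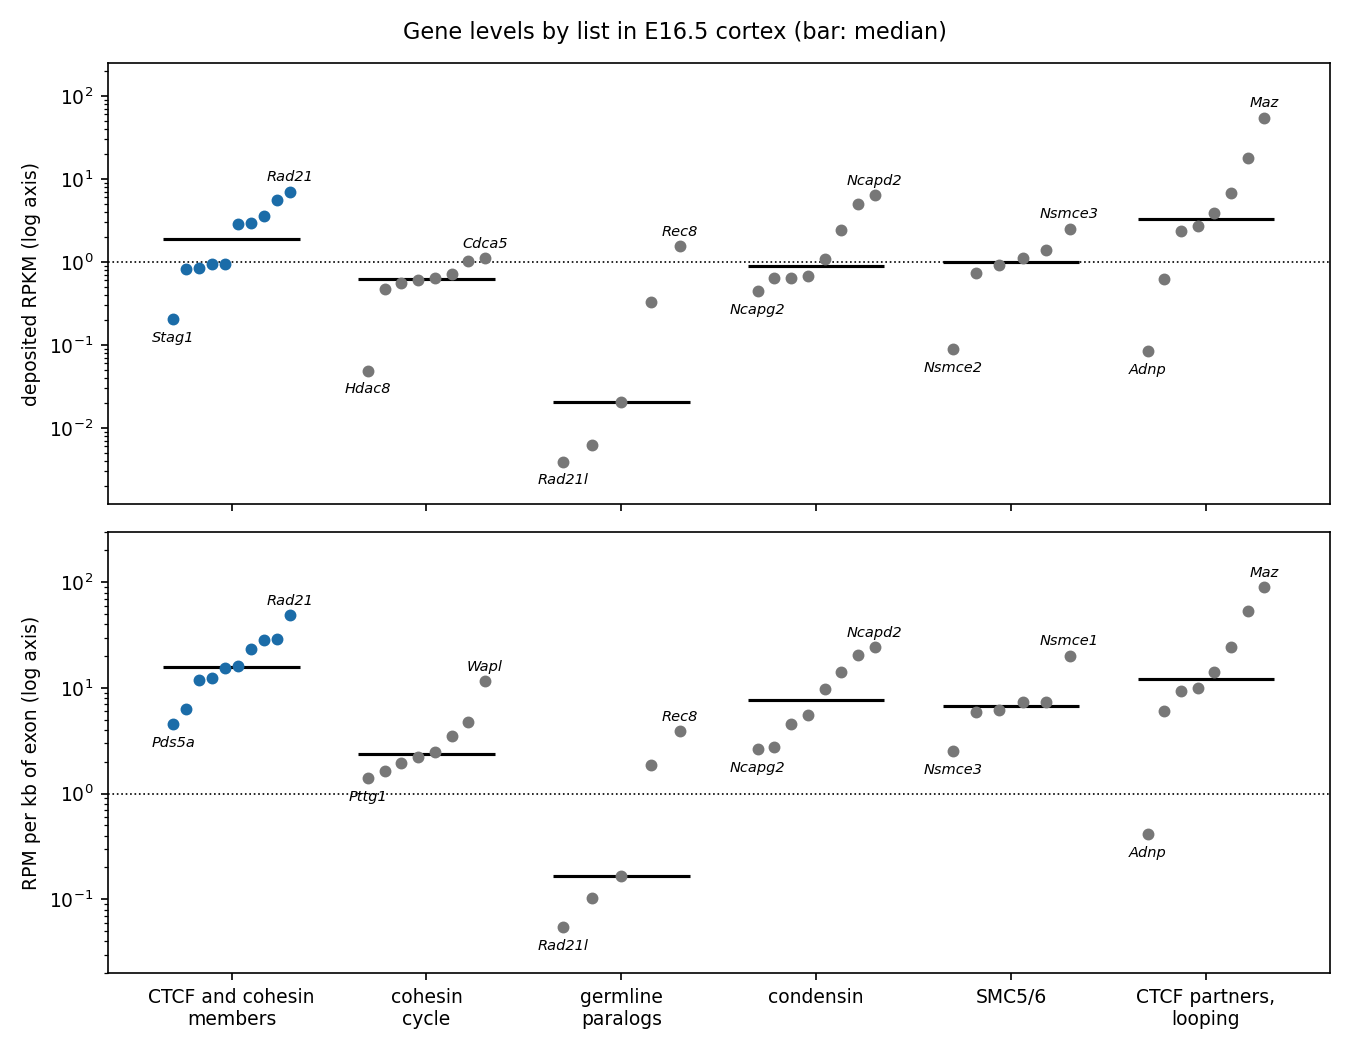
Levels of the members and of 5 related gene lists in E16.5 cortex, in deposited RPKM (top) and RPM per kilobase of exon (bottom), on log axes; each point is 1 gene from the authors' mean of 3 libraries, bars are list medians, the dotted line is 1, and the highest and lowest gene of each list are named. The members' median is 1.91 RPKM and 15.8 per kilobase of exon, and the germline paralogs are lowest with 0.0207 RPKM and 0.167 per kilobase of exon.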

How the data were processed

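The authors deposited RPKM per gene ID as 1 mean for E16.5 cortex, to which the labels assign 3 libraries. Trizol extraction, RNeasy Micro clean-up, TruSeq library preparation and HiSeq sequencing are the steps per the labels' protocols. The submitters' processing notes name build mm9 (NCBIM37), the aligners TopHat2 2.0.9 and Bowtie2 2.1.0, and DESeq 1.16.0, HTSeq 0.6.0 and Cuffdiff 2.0.2. No source used here says which of them made the RPKM.

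IDs were matched to GENCODE M21 by gene ID, with no coordinates printed from it since it is on a later build: 32938 of 37991 had a symbol and length. The 5053 without hold 2.30% of all RPKM summed. Depth and reads were estimated from low values (tolerance 0.5%), in steps tested on simulated data. The simulated reads were built on gene span, so that trial cannot tell span from exon length. Promoters were matched by symbol. Python 3.11.15, pandas 2.3.3, numpy 2.4.6 and scipy 1.17.1 were used. With 1 mean and 1 group there were no tests, only ratios, counts at 1 RPKM and medians with a pseudocount of 0.1. The text names all members, all cohesin cycle and germline genes, all pairs, and the highest and lowest gene of the other lists. Members and lists were chosen with earlier results of these data known. Alternatives were other thresholds, pseudocounts, filters and lengths.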

Additional observations from a re-analysis of the deposited data

How the results depend on the processing

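The counts at 1 RPKM or more were 10 members per kilobase of exon, of basic exon or of coding length, against 5 as deposited, and 9 at a threshold of 0.5 RPKM. That lower threshold is near the median of protein-coding genes listed above 0, which was 0.450 RPKM. The members' median log2(RPKM + 0.1) of 0.82 became 3.99, 4.40 and 4.97 per kilobase of exon, basic exon and coding length, 1.46 and 0.73 with pseudocounts of 1 and 0.01, 0.86 as a mean and 0.0644 without Rad21. Its difference from protein-coding genes, 1.68, stayed above 0 in the alternatives that kept all 10 members. It was 2.36, 2.35 and 1.79 on the 3 lengths, 0.92 and 1.85 with the pseudocounts and 2.49 with genes at 0. Among genes at 1 RPKM or more the difference was 0.29, but that filter was put on the members too. That value thus covers only the 5 members at 1 RPKM or more and not the whole list. Spearman's rho with the deposited order was 0.794 per kilobase of exon and of basic exon, 0.842 per coding length and 0.855 by reads. Per kilobase of exon, basic exon and coding length the pairs were 0.507, 0.735 and 0.715 (Stag1 over Stag2), 0.385, 0.698 and 0.812 (Pds5a over Pds5b, reversed), 2.08, 1.94 and 3.04 (Rad21 over Smc3), 1.05, 1.77 and 4.30 (Mau2 over Nipbl), and 0.576, 0.692 and 0.571 (Ctcf over Rad21); Smc1a over Smc3 was 1.22 and 1.32 on both exon lengths. With 1 added to both values these pairs were 0.666, 1.05, 2.07, 3.36, 0.493 and 1.19 in that order. With 0.1 added, Stag1 over Stag2 was 0.337, Rad21 over Smc3 2.39, Mau2 over Nipbl 5.39 and Ctcf over Rad21 0.429. Also reversed was Esco1 over Esco2 (2.91, 1.43 and 1.44 on the 3 lengths). Wapl over Pds5a came to near equality per coding length (0.996). Genes at 1 or more numbered 8 of the cohesin cycle, 2 of the germline, 8 of the condensin and 6 of the SMC5/6 lists per kilobase of exon and of coding length alike, and 6, 7 and 5 of the cohesin cycle, condensin and SMC5/6 lists at 0.5 RPKM. Of 20230 protein-coding genes, 10932 (54.0%) reached 1 per kilobase of exon and 12209 per kilobase of coding length. The share of protein-coding genes at 0.5 RPKM was not computed, so the counts at that threshold have no background beside them. The basic exon and coding lengths were chosen after seeing the data.

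Leaving out single replicates could not be run with 1 mean column. No paired analysis was possible because the cortex was deposited as 1 mean and no column of a single library was used. Sums of about 14063 to 38820 reads per member make counting error small, so the limits are the unknown spread between libraries, the annotation behind each length and the assumption that counted reads lie in exons, which was not tested.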
